A study of Rattus norvegicus with 49 samples.

Results

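The genes described here build cholesterol, sense it, and move it into and out of cells. The set holds 32 named rat genes: enzymes of the route from acetyl-CoA to cholesterol, the SREBP2 control proteins, and proteins of sterol uptake, transport and efflux. They, and the other gene lists below, were chosen by gene symbol with earlier results of these data known. A count set beside the share of all genes thus describes these lists and is no independent test. A gene counted as measured where a probe set was annotated to its symbol and to no other. On that rule 30 of the 32 were measured, among 14217 genes in all, and Hmgcs1 and Npc1 were not analysed here. The 30 comprise 17 synthesis enzymes, 4 control genes and 9 genes of uptake, transport and efflux. For 16 of them more than 1 probe set was present. The main value is that of the brightest probe set, by its mean across the 49 arrays, and the others served as checks.

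The arrays come from male Harlan Sprague Dawley rats that received propylene glycol phenyl ether (PPH), a glycol ether solvent, in corn oil by gavage at 5 mL/kg on 5 consecutive days, and were killed the day after the last dose. Doses were 0 (corn oil alone, the control of each organ), 1, 10, 100, 500 and 1000 mg/kg, and the rats were 6 to 8 weeks old when assigned to groups. One passage of the labels names MCHM as the agent, whereas the titles and the compound field of all 49 arrays name PPH, which is followed here. A further group at 2000 mg/kg gave no tissue. Liver was hybridised on 25 arrays and kidney on 24, with 5 arrays at 0 mg/kg, 4 at each other dose and 3 for kidney at 500 mg/kg. Each array holds the RNA of 1 organ sample labelled as a biological replicate. Values are log2 levels after robust multi-array averaging (RMA), so a difference of 1 is a doubling. A level of 1 gene is not comparable with that of another, because probe sets differ in brightness. The median log2 level of an array ran from 6.47 to 6.62 in liver and from 6.62 to 6.77 in kidney, and the lowest correlation between any pair of arrays was 0.987 in liver and 0.988 in kidney.

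Cells make cholesterol from acetyl-CoA in a long chain of steps, through mevalonate, the isoprenoid diphosphates and squalene, to lanosterol and on to cholesterol. When sterols in the endoplasmic reticulum are scarce, the protein SCAP escorts the membrane-bound transcription factor SREBP2 (gene Srebf2) to the Golgi, where it is cut and released to switch on the enzymes of the route. The INSIG proteins hold SCAP back when sterols are plentiful, and the liver X receptors respond to oxidised sterols by raising genes of efflux. Liver is the main organ of sterol synthesis and of its disposal into bile.

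In liver at 1000 mg/kg, 12 of the 30 measured genes rose against 0 mg/kg and none fell, where 1.05% of all genes tested were called. All 12 were enzymes of the synthesis route, 12 of the 17 measured, and the background for a rise is 0.739% of all genes. Their fold changes ran from 1.45 for Ebp to 2.21 for Acat2. All 17 enzymes lay above the controls, with a median log2 change of 0.70 and a range from 0.18 to 1.14, beside a median of 0.02 over all genes. None of the 4 control genes and none of the 9 uptake, transport and efflux genes was called. A gene was called where the Benjamini-Hochberg adjusted p of limma over all 14217 genes was under 0.05, and n was 4 arrays against 5. The calls rest on 1 array more than on the others. Without 1000 mg/kg replicate 3 the same 12 genes still lay above the controls, by 0.41 to 1.01 on the log2 scale, but only Fdft1 kept its call.

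**Figure D1:**
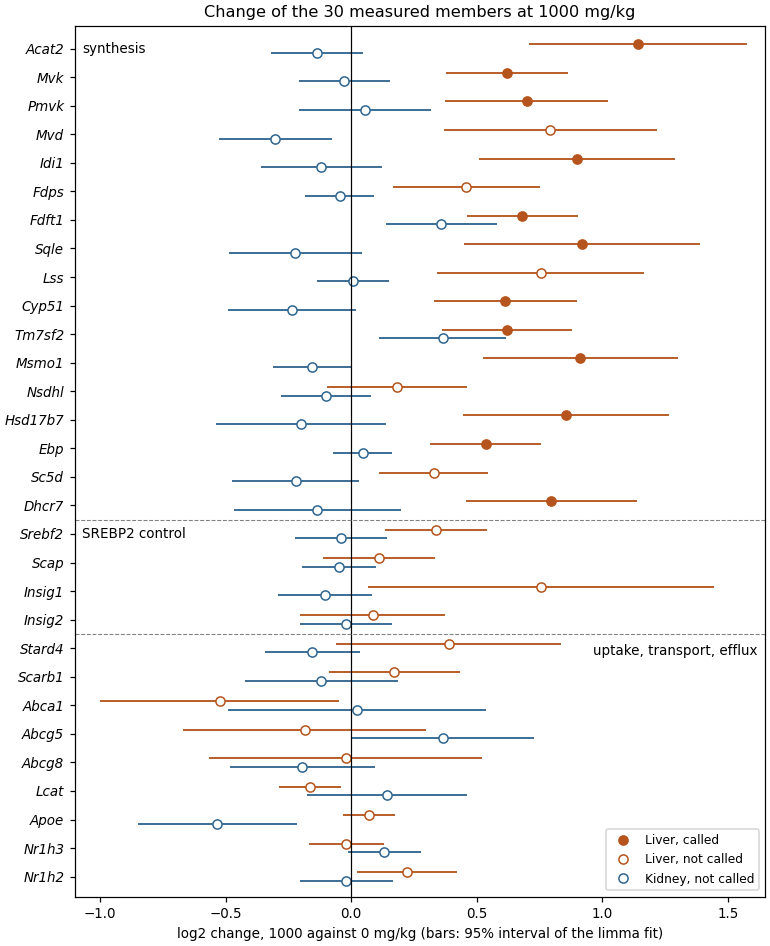
Log2 change between 1000 and 0 mg/kg for the 30 measured genes in liver (4 against 5 arrays) and kidney (4 against 5 arrays), with bars for the 95% interval of the limma fit and filled points for genes called at an adjusted p under 0.05. The 12 filled points are all liver values of synthesis enzymes, between 0.54 and 1.14, and the kidney values of the same genes lie between -0.24 and 0.36.

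The promoters that RefSeq gives for the set were searched for letters of factors known to act on genes of sterol synthesis. Promoter windows of 300 bases, from 250 before to 50 after each start site (RefSeq, assembly GRCr8), were present for 27 of the 32 genes and not for Pmvk, Fdft1, Sqle, Stard4 and Scarb1. The core of the sterol regulatory element as searched, TCACNCCAC on both strands, was in none of the 29 windows of those genes, and it is in 1.12% of the 33469 windows of all genes. That says only that these letters are not in these windows. The box of NF-Y, CCAAT, was in 12 of the 15 windows of synthesis enzymes (80.0%), against 37.5% of all windows. The box of Sp1, GGGCGG, was in 13 of the 15 (86.7%), against 33.1% of all. Both were in 10 of the 15 (66.7%), against 11.8% of all. The 15 include Hmgcs1, which was not measured on the arrays and whose window holds both boxes. In the 9 windows of enzymes called in liver at 1000 mg/kg the shares were 66.7% for CCAAT, 88.9% for GGGCGG and 55.6% for both, so CCAAT was in 6 of the 9 and in all 6 windows of the other enzymes. The enzyme windows were also richer in G and C, with a median of 63.0% against 51.7%, and the part of base composition in these shares was not tested.

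The 4 windows printed next belong to the called enzymes with the smallest p that hold both boxes. They were chosen after the matches were seen, and they show how densely the boxes can lie. Capitals mark CCAAT and GGGCGG, or their reverse complements ATTGG and CCGCCC, and no match overlaps a match of the other box. The window of Mvk, mevalonate kinase (chr12:47819454-47819753, minus strand), holds 5 CCAAT and 2 GGGCGG matches. That of Ebp, a sterol isomerase (chrX:16971212-16971511, plus strand), holds 2 and 1, and that of Tm7sf2, a sterol reductase (chr1:212789492-212789791, minus strand), also 2 and 1. The window of Msmo1, which starts the removal of methyl groups from lanosterol-derived sterols (chr16:29746863-29747162, plus strand), holds 3 of each.
Mvk: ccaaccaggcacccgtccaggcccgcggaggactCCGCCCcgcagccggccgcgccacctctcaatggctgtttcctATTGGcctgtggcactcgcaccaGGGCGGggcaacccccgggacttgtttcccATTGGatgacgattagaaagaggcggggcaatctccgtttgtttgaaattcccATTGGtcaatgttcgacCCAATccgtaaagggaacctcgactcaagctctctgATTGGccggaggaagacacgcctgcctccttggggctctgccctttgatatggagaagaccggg
Ebp: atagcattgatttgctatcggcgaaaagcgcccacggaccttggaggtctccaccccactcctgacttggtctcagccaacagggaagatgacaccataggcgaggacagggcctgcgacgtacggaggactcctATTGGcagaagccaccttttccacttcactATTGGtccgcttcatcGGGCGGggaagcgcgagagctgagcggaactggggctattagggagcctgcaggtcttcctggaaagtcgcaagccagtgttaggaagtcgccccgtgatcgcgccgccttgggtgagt
Tm7sf2: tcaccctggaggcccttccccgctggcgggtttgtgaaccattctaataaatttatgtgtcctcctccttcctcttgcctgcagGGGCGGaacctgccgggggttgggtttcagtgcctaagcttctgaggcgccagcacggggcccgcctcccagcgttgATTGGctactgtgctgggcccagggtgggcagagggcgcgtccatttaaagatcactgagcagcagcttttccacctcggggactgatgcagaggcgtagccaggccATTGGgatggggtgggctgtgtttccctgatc
Msmo1: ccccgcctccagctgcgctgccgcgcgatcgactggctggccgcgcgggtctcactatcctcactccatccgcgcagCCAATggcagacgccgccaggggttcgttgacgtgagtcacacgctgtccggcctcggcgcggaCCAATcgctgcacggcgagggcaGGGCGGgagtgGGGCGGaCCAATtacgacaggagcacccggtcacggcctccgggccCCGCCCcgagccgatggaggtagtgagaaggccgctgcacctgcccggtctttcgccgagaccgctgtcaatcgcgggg
A match describes the letters and does not show that a factor binds.

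The route opens with Acat2, the cytosolic thiolase that joins acetyl-CoA units into acetoacetyl-CoA. Its liver log2 levels were 8.89, 8.19, 9.14, 9.03 and 9.17 in the controls and 9.66, 9.81, 10.44 and 10.21 at 1000 mg/kg. All 4 top-dose arrays lay above all 5 controls, and control replicate 2 was the lowest by a wide margin. The change was 1.14 ± 0.21 (SE; adjusted p = 0.0071), or 2.21-fold, the largest of the 30 genes. At 500 mg/kg Acat2 gave 9.56, 9.11, 9.64 and 10.02, a change of 0.70 that was not called (adjusted p = 0.209).

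Mevalonate kinase, Mvk, phosphorylates mevalonate. Its levels were 8.59, 8.31, 8.52, 8.34 and 8.71 in the controls and 9.00, 9.05, 9.42 and 9.00 at 1000 mg/kg. The groups did not overlap, and the change was 0.62 ± 0.12 (adjusted p = 0.0095). A second Mvk probe set gave 0.62 as well, whereas a further, dim set with a mean of 4.62 gave -0.18. Pmvk adds the next phosphate, and its levels were 9.20, 8.69, 9.31, 9.02 and 9.08 in the controls and 9.43, 9.57, 9.99 and 10.06 at the top dose. Pmvk rose by 0.70 ± 0.16 (adjusted p = 0.0283). Its 500 mg/kg arrays, at 9.48, 9.46, 10.03 and 9.98, already reached the level of the top dose, with a change of 0.68 (adjusted p = 0.0877). Mvd, which makes isopentenyl diphosphate, was 0.79 higher at 1000 mg/kg with no overlap between groups but was not called (adjusted p = 0.0643).

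Idi1 interconverts the isoprenoid diphosphates. Its controls read 11.04, 10.29, 10.91, 10.94 and 11.32, and its top-dose arrays 11.71, 11.65, 12.17 and 11.67. Every top-dose array exceeded every control. Idi1 rose by 0.90 ± 0.19 (adjusted p = 0.0194), and its other probe set gave 0.96 and was called too. Fdps, which builds farnesyl diphosphate, was 0.46 higher and not called (adjusted p = 0.137).

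Fdft1, squalene synthase, commits farnesyl diphosphate to sterols. The controls read 10.17, 9.84, 10.12, 9.99 and 10.26 and the top-dose arrays 10.50, 10.78, 10.93 and 10.83. Fdft1 had the smallest p of the 30 genes, with a change of 0.68 ± 0.11 (adjusted p = 0.00194), and a second probe set gave 0.70 and was called too. The means at 0, 1, 10, 100, 500 and 1000 mg/kg were 10.08, 10.29, 10.25, 10.29, 10.43 and 10.76. The 3 low doses were thus nearly level with each other, and the top dose stood apart from them. Sqle, squalene epoxidase, ranged from 7.98 to 9.22 with a median of 8.87 in the controls and from 9.47 to 9.98 with a median of 9.55 at 1000 mg/kg. Sqle rose by 0.92 ± 0.23, close to the threshold (adjusted p = 0.0483). Lss, which closes squalene epoxide into lanosterol, was 0.75 higher with overlapping groups (adjusted p = 0.0692).

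Beyond lanosterol the route strips methyl groups and shifts double bonds. Cyp51, the lanosterol demethylase, read 11.77, 11.26, 11.76, 11.62 and 11.84 in the controls and 11.98, 12.09, 12.67 and 12.30 at 1000 mg/kg. It rose by 0.61 ± 0.14 (adjusted p = 0.0279), and by 0.84 on its second probe set, which was also called. Tm7sf2 read 10.29, 9.94, 10.11, 10.36 and 10.06 and then 10.47, 10.80, 11.13 and 10.70, a rise of 0.62 ± 0.13 (adjusted p = 0.0149). Both sets of arrays were separate in these 2 genes.

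Msmo1, whose promoter window holds 3 matches of each box, read 11.21, 10.34, 11.32, 11.00 and 11.56 in the controls. At 1000 mg/kg it read 11.81, 12.03, 12.13 and 12.02, a rise of 0.91 ± 0.19 (adjusted p = 0.016). Apart from control replicate 2, the controls ran from 11.00 to 11.56 and the top-dose arrays from 11.81 to 12.13. With 1 array left out at a time the rise was as low as 0.73. Hsd17b7, a reductase of the same demethylation steps, ranged from 8.46 to 9.59 (median 9.27) in the controls and from 9.77 to 10.37 (median 9.91) at the top dose. It rose by 0.86 ± 0.20 (adjusted p = 0.0341), and a dimmer probe set gave 0.76 without a call. Nsdhl, a dehydrogenase between these 2, was 0.18 higher with a 95% interval from -0.10 to 0.46. It was the smallest change of the 17 enzymes.

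Ebp shifts a double bond in the sterol ring. Its controls read 10.66, 10.34, 10.56, 10.70 and 10.62 and its top-dose arrays 10.89, 11.19, 11.48 and 10.89. The rise was 0.54 ± 0.11 (adjusted p = 0.0142), the smallest among the 12 called genes. Sc5d, a desaturase, was 0.33 higher and not called (adjusted p = 0.15), and its other probe sets gave 0.38 and 0.40. Dhcr7 reduces the last double bond of one branch of the route. Its levels were 10.80, 9.83, 10.55, 10.55 and 10.68 in the controls and 10.97, 11.09, 11.78 and 11.29 at 1000 mg/kg, a rise of 0.80 ± 0.16 (adjusted p = 0.0163). Over all members, the top-dose arrays were all above the controls in 17 genes, 15 of them synthesis enzymes, against 3.45% of all genes. They were all below the controls in 0 genes, against 1.73%.

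**Figure D2:**
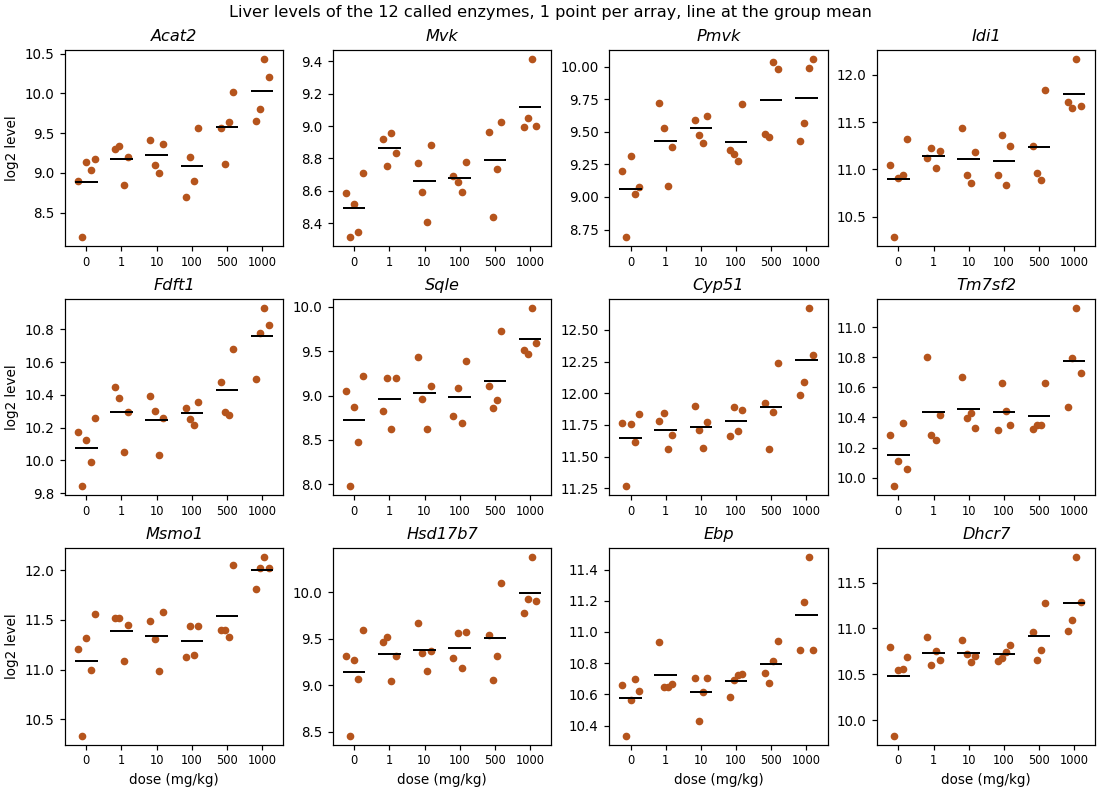
Liver log2 levels of the 12 called enzymes by dose, with 1 point per array (5 at 0 mg/kg, 4 at each other dose) and a line at each group mean; each panel has its own vertical axis. In every panel all 4 points at 1000 mg/kg lie above all 5 at 0 mg/kg, and the lowest control point is replicate 2.

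The genes that control SREBP2 showed a smaller and looser picture. Srebf2 read 7.91, 7.52, 7.86, 7.70 and 7.82 in the controls and 7.94, 8.19, 8.26 and 8.01 at 1000 mg/kg. The groups did not overlap, but the change of 0.34 ± 0.10 was not called (adjusted p = 0.108), and a dim second probe set with a mean of 3.46 gave -0.30. Insig1 is itself a target of SREBP2. It spread widely, with controls at 10.35, 9.79, 11.90, 10.62 and 11.44 and top-dose arrays at 11.17, 11.68, 11.58 and 11.87. The change was 0.76 ± 0.33 (adjusted p = 0.341), so its size was like that of the enzymes and its error larger. Scap read 8.58, 8.49, 8.78, 8.55 and 8.72 against 8.53, 8.74, 8.98 and 8.69, a difference of 0.11 (95% interval -0.11 to 0.33). Insig2 read 11.45, 11.96, 11.68, 11.72 and 11.10 against 11.67, 11.76, 11.64 and 11.60, a difference of 0.09 (-0.20 to 0.38).

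No gene of uptake, transport or efflux was called in liver, and the 9 had a median change of -0.02. Abca1, which loads cholesterol onto apolipoprotein particles, read 10.43, 10.42, 10.07, 9.83 and 9.91 in the controls and 10.14, 9.93, 9.64 and 8.73 at 1000 mg/kg. Replicate 4 was far below the others, the groups overlapped, and the difference was -0.52 ± 0.23 (adjusted p = 0.342). All 4 Abca1 probe sets gave negative values against the controls. The liver X receptors Nr1h3 and Nr1h2 differed by -0.02 (95% interval -0.17 to 0.13) and 0.22 (0.02 to 0.42; adjusted p = 0.332). Nr1h3 read 9.89, 9.59, 9.91, 9.70 and 9.77 in the controls and 9.72, 9.68, 9.75 and 9.86 at the top dose. Nr1h2 read 6.84, 6.81, 6.93, 6.46 and 6.88 and then 6.85, 7.14, 7.02 and 7.02. For both receptors the groups overlapped. Stard4, a carrier of sterol between membranes, was 0.39 higher, Scarb1, the receptor for high-density lipoprotein, 0.17 higher, and Lcat, which esterifies plasma cholesterol, 0.16 lower, with adjusted p of 0.483, 0.628 and 0.232. Apoe, a lipoprotein component, differed by 0.07.

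Abcg5 and Abcg8 together form the pump that exports sterols into bile. They lie head to head on chromosome 6, and 295 of the 300 bases of their windows are shared on opposite strands (chr6:15717686-15717985, plus strand for Abcg5; chr6:15717681-15717980, minus strand for Abcg8). The Abcg5 window is printed because both genes use it, and its single CCAAT match, on the reverse strand, is in capitals.
Abcg5: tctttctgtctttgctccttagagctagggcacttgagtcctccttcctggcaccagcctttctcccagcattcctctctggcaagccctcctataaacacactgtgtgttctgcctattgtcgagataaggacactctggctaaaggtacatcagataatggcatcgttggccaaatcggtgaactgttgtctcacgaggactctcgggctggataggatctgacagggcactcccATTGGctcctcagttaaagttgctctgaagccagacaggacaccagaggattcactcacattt
In liver Abcg5 read 8.42, 8.18, 7.77, 8.35 and 8.56 in the controls and 8.16, 7.83, 8.54 and 7.76 at 1000 mg/kg. Abcg8 read 5.94, 5.65, 5.08, 6.09 and 5.88, and then 5.80, 5.52, 6.33 and 5.17. The arrays that were low in one gene were low in the other. Over the 25 liver arrays the correlation of their deviations from the dose means was 0.84, while the median over the 36 pairs of the 9 uptake, transport and efflux genes was 0.01. In kidney, where Abcg5 had a mean of 3.68 and Abcg8 of 3.66 in the controls, near the bottom of the scale, the same correlation was -0.58. At 1000 mg/kg the liver differences were -0.18 (95% interval -0.67 to 0.30) and -0.02 (-0.56 to 0.52).

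At the lower doses no gene of the set was called in liver, where 0% of all genes were called at 1 mg/kg, 0.00703% at 10, 0% at 100 and 0.0492% at 500. An unadjusted p under 0.05 in limma was met by 4, 2, 2 and 10 of the 30 genes, against 9.45%, 9.22%, 9.18% and 10.7% of all genes. The median change of the 17 enzymes was 0.23, 0.24, 0.19 and 0.36 at those doses, and all 17 lay above 0 at each. These comparisons share the same 5 controls, so their common sign is no repeated observation. Control replicate 2 was the lowest of the 5 in 17 of the 17 enzymes. Without it the medians at 1, 10 and 100 mg/kg were 0.08, 0.09 and 0.04, while those at 500 and 1000 mg/kg were 0.25 and 0.62.

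The median deviation of the 17 enzymes from the control mean was -0.51 in control replicate 2 and between -0.07 and 0.21 in the other controls. At 1000 mg/kg the 4 arrays gave 0.39, 0.62, 1.02 and 0.76, and replicate 3 was the highest of the 4 in 14 of the 17 enzymes. At 500 mg/kg replicate 4, at 0.80, was highest in 16 of 17 and reached the level of the top dose, whereas the other arrays gave 0.39, 0.10 and 0.24. Within an array the enzymes thus moved together, and whether this belongs to the animal, the RNA sample or the hybridisation was not tested. Without control replicate 2, 8 members were called at 1000 mg/kg. The number was also 8 when control replicate 4, or replicate 4 of the top dose, was left out. Leaving out control replicate 2 and 1000 mg/kg replicate 3 together left 1, Fdft1, with changes of the 12 genes between 0.35 and 0.83. That alternative was chosen after seeing the data.

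**Figure D3:**
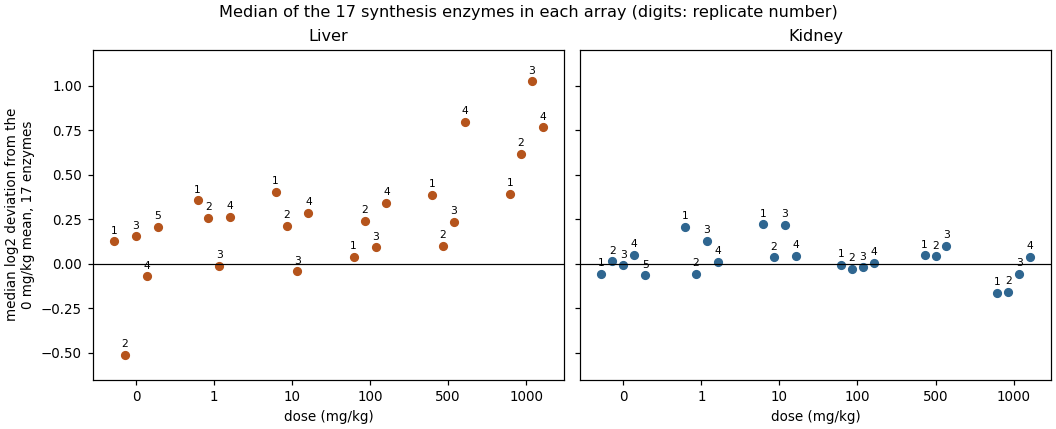
Median over the 17 synthesis enzymes of the log2 deviation from the 0 mg/kg mean, 1 point per array with its replicate number, by dose in liver and kidney. In liver control replicate 2 lies at -0.51, 500 mg/kg replicate 4 at 0.80 and the 1000 mg/kg arrays between 0.39 and 1.02; all kidney arrays lie between -0.16 and 0.22.

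The top dose was also set against the 12 arrays at 1, 10 and 100 mg/kg, which leaves the control arrays out of the difference. In liver 4 of the 30 genes rose, Fdft1, Acat2, Ebp and Cyp51, where 0.57% of all genes were called and 0.26% rose. Their log2 changes were 0.48, 0.87, 0.44 and 0.52, with adjusted p of 0.0135, 0.0246, 0.0246 and 0.0403. All 17 enzymes were above 0, with a median of 0.52. In 9 of them each top-dose array lay above each of the 12 low-dose arrays, against 0.366% of all genes. Without 1000 mg/kg replicate 2, and likewise without replicate 3, no gene was called, and without replicate 4 the number was 2. Along the rank of the 6 doses, 7 genes rose in liver, where 0.661% of all genes were called and 0.521% rose. They were Acat2, Pmvk, Fdft1, Cyp51, Msmo1, Ebp and Dhcr7, with Acat2 rising by 0.19 and Fdft1 by 0.11 per dose step. Without 1000 mg/kg replicate 3 only Fdft1 passed, and without control replicate 2 or 1000 mg/kg replicate 4 only Acat2 and Fdft1 did. The number of genes with a trend was 3 without control replicate 4 and 11 without 500 mg/kg replicate 2. It was 4 in each fit without control replicate 1, 1 mg/kg replicate 3, 100 mg/kg replicate 2 or 4, 500 mg/kg replicate 4, or 1000 mg/kg replicate 1 or 2.

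In kidney none of the 30 genes was called at 1000 mg/kg, where 1.55% of all genes were. Of the 17 enzymes 5 lay above 0, the median change was -0.12, and all values lay between -0.30 and 0.36. An unadjusted p under 0.05 was met by 6 members, 3 in each direction, and by 13.3% of all genes. Fdft1 read 8.21, 8.11, 8.20, 8.44 and 8.41 in the controls and 8.62, 8.76, 8.77 and 8.38 at 1000 mg/kg, a difference of 0.36 ± 0.11 (adjusted p = 0.0999). Replicate 4 fell among the controls, and without it Fdft1 was the 1 member called; its second probe set gave 0.16. Tm7sf2 gave 0.36 (adjusted p = 0.162), with replicate 4 again among the controls. Mvd was 0.30 lower (adjusted p = 0.199).

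Among the kidney genes of transport, Apoe read 11.75, 11.67, 12.22, 11.83 and 11.74 in the controls and 11.18, 11.45, 11.33 and 11.28 at 1000 mg/kg. All 4 arrays were below the controls, as in 3.09% of all genes, and the difference of -0.53 ± 0.15 had an adjusted p of 0.087. The Apoe means at 1, 10, 100 and 500 mg/kg, 11.39, 11.55, 11.48 and 11.60, were also under the control mean of 11.84. All doses were set against the same controls, so the common sign is no repeated observation. Of those controls 1, at 12.22, stood above the others, at 11.67 to 11.83. The means over macrophage and over fibroblast markers were also lower in the kidneys at 1000 mg/kg, but single markers differed. The mean of 5 macrophage markers was 0.12 to 0.31 below the control mean. Adgre1 was called (-0.80, limma adjusted p = 0.0218) and Csf1r was at -0.34 (adjusted p = 0.077). Cd68, at -0.11, Cd163, at -0.02, and Clec4f, at 0.07, lay closer to the controls. The mean of 6 fibroblast and stellate markers was 0.30 to 0.67 below its control mean, with none called. Lum was at -0.91, Col1a1 at -0.72, Col3a1 at -0.65 and Col1a2 at -0.50, but Pdgfrb at -0.10 and Dcn at -0.03. The part of these markers in the Apoe values was not tested. Abcg5 was 0.37 higher (adjusted p = 0.367) at its very low level. Of the control genes in kidney, Srebf2 differed by -0.04, Scap by -0.05, Insig1 by -0.10 and Insig2 by -0.02. No member was called at 1, 10, 100 or 500 mg/kg, where 0% of all genes were called at each dose. The unadjusted p in limma was under 0.05 for 3, 5, 3 and 1 of the 30, against 2.98%, 7.35%, 6.83% and 5.08% of all genes. None was called against the low doses, where 0.964% of all genes were, or along the dose rank, where 1.39% were. In these 2 comparisons 10 and 5 members had an unadjusted limma p under 0.05, against 10.8% and 12.5% of all genes. In the top-dose kidney arrays the median deviation of the 17 enzymes from the control mean ran from -0.16 to 0.04. At 1, 10 and 100 mg/kg it ran from -0.06 to 0.22.

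Whether the change at 1000 mg/kg differed between organs was tested in 1 model over all 49 arrays, taken as independent. The labels do not say whether liver and kidney arrays of 1 dose and replicate number come from the same rat. Their deviations from the group means correlated with a mean r of 0.103 over 24 pairs, in a range from -0.018 to 0.229. The mean was -0.032 over the 77 pairs of the same dose and different numbers. Deviations from a group mean cancel within the group, so the second mean nearly follows from the first and is no separate baseline. The liver change was the larger in 10 of the 30 genes and the smaller in none, where 0.626% of all genes were called and 0.436% had the larger change in liver. The 10 were Acat2, Mvk, Mvd, Idi1, Sqle, Cyp51, Msmo1, Hsd17b7, Ebp and Dhcr7. Acat2 differed by 1.28 ± 0.24 (adjusted p = 0.00342) and Msmo1 by 1.07 ± 0.21 (adjusted p = 0.00702). Mvd, which missed the threshold in either organ alone, differed by 1.10 ± 0.24 (adjusted p = 0.0177). Fdft1, with the smallest p in liver, differed by 0.32 (95% interval 0.01 to 0.63; adjusted p = 0.388), and Tm7sf2 by 0.26 (-0.10 to 0.62). With dose and number as a random block over both organs, chosen after seeing the data, the same 10 genes were called and Apoe as well. Without liver 1000 mg/kg replicate 3 only Acat2 and Msmo1 were called. The number was 4 without liver control replicate 2 and 3 without kidney 1000 mg/kg replicate 1. It was 6 in each fit without liver control replicate 4, liver 1000 mg/kg replicate 4, kidney control replicate 2, or kidney 1000 mg/kg replicate 2 or 3.

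**Figure D4:**
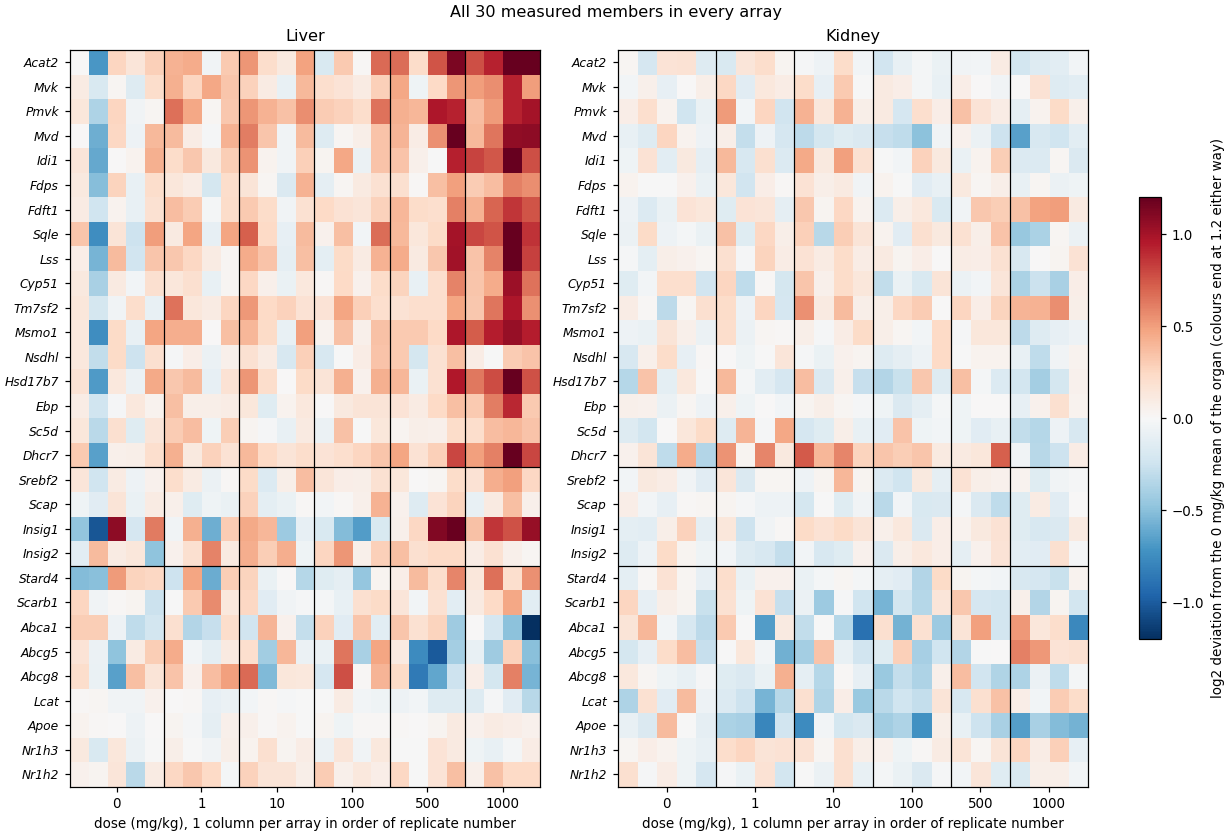
Log2 deviation of each measured gene from the 0 mg/kg mean of its organ, with 1 column per array in order of dose and replicate and colours that end at 1.2 in either direction. The 17 enzyme rows darken together in the liver arrays at 1000 mg/kg and in 500 mg/kg replicate 4. In liver control replicate 2 all 17 lie below the control mean. Common shifts in kidney columns are smaller: 16 of the 17 lie above the control mean in 10 mg/kg replicate 3, and 3 in 1000 mg/kg replicate 1.

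The enzymes also varied together within dose groups. After the mean of each dose was removed, all 136 pairs of the 17 enzymes correlated above 0 over the 25 liver arrays, with a median r of 0.74 and a range from 0.12 to 0.94. The median over all pairs of the 14217 genes was 0.004. Without control replicate 2 the median was 0.68, and over the 12 arrays at 1, 10 and 100 mg/kg alone it was 0.61, with 134 of 136 pairs above 0. In kidney the median was 0.20, with 95 of 136 above 0. These are descriptions over arrays that share their hybridisation and normalisation, with no test. Hsd17b7 and Idi1 were the closest pair in liver (0.94). The median correlation with the 17 enzymes was 0.67 for Scap, 0.62 for Srebf2 and 0.62 for Insig1. For Insig2 it was -0.39 and for Abca1 -0.37, and both were below 0 with every one of the 17.

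Of 15 other genes of SREBP regulation and isoprenoid supply, 2 rose in liver at 1000 mg/kg and none fell, beside the 0.739% of all genes that rose. Tmem97, a sterol-regulated membrane protein, rose by 0.59 ± 0.10 (adjusted p = 0.00413), and Acss2, which makes acetyl-CoA from acetate, rose by 0.70 ± 0.17 (adjusted p = 0.0364). The median of the 15 was 0.29 and 12 lay above 0. Acss2 lost its call, and the count fell to 1, in each fit without control replicate 1, 2 or 3 or without 1000 mg/kg replicate 2, 3 or 4, and also with the replicate block, with centred arrays and with the 2 groups alone. Tmem97 kept its call in all of these. Of the 15, 7 had an unadjusted p under 0.05, all higher, against 12.4% of all genes in either direction and 7.88% higher. In kidney none of the 15 was called, with 4 under an unadjusted 0.05, against 13.3% of all genes. Tmem97 also differed between organs (0.59, adjusted p = 0.0463). Of 17 other genes of sterol storage, transport and removal, none was called in either organ at 1000 mg/kg, with 4 in liver and 5 in kidney under an unadjusted 0.05, against the same 12.4% and 13.3% of all genes, and medians of -0.05 and -0.01. Under other settings up to 2 were called in liver, among them Lipc, hepatic lipase (-0.27, adjusted p = 0.0643), and Cyp27a1, a sterol hydroxylase (0.34, adjusted p = 0.0643). Cyp7a1, which opens bile acid synthesis, differed in liver by 0.18 with a 95% interval from -0.70 to 1.06.

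Markers of the organs' cell types fitted the labels. The mean of 7 hepatocyte markers was 13.3 in liver and 4.0 in kidney controls, and that of 6 tubule markers 11.6 in kidney and 4.5 in liver. In liver at 1000 mg/kg the hepatocyte mean lay from -0.17 to 0.06 around the control mean. The 5 markers of adrenal cortex, a cell type that makes much cholesterol, had a low mean in both organs (4.20 in liver and 4.11 in kidney controls). In the top-dose livers that mean lay from -0.29 to -0.08 against the control mean. Markers of dividing cells were lower at the top dose. In kidney the mean of each such marker fell at every dose step, with Mki67 at 5.96, 5.67, 5.51, 5.18, 5.12 and 4.41 from 0 to 1000 mg/kg. Of 4 such genes 1 fell in liver and 4 in kidney, beside 1.05% and 1.55% of all genes called at 1000 mg/kg. The mean of the 4 was 1.25 to 1.58 lower in the liver arrays at 1000 mg/kg. The mean of 5 macrophage markers was 0.11 to 0.49 lower in those livers, with none called. Single markers differed, from -0.04 for Cd68 to -0.46 for Cd163 and -0.48 for Adgre1. In kidney 7 arrays, none of them at 1000 mg/kg, had an adipocyte mean over 0.5 above the controls. The part of these shifts in the results on cholesterol genes was not tested, and in whole organs fewer cells of a type cannot be told apart from less RNA per cell.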

How the data were processed

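RNA of 25 livers and 24 kidneys was hybridised to 1 Affymetrix rat expression array each, per the labels' protocols. The authors deposited 1 table of log2 values for 31099 probe sets, made with RMA per the submitters' processing notes; its version and any batch were not given in the labels. RMA normalises across arrays, so it can mask a shift common to most genes, and it compresses changes of dim probe sets. Probe sets were named from the platform annotation given with the data: 20826 had 1 symbol, 436 several and 9780 none, and 57 were controls. Entrez identifiers matched 20758 of the 20826 to current RefSeq symbols and accessions 2, and 66 kept the annotation's symbol. No other filter was applied.

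Per organ, limma 3.58.1 (R 4.3.3; lmFit, eBayes) fitted 1 mean per dose on the deposited log2 values, and p-values were adjusted over 14217 genes. The same fits gave the contrast with the low doses and the trend; 1 model over both organs gave their difference. The limma p-values set a change against the spread between arrays labelled as biological replicates, with 1 estimate of that spread shared by all groups of a fit. The number of arrays limits the precision. The scripts were tested on simulated data.

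The member genes and the other gene lists were chosen with earlier results of these data known. Every member may be named; all array values are given for the called members with the smallest p, up to 10, and for control and efflux genes. From the other lists, called genes are named, and Cyp7a1, Lipc and Cyp27a1 were named after their values were seen. The rule for printing promoters asked for the sterol element core and selected none.

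Other settings tried were a mean over each gene's probe sets, bright genes only, quantile normalisation, arrays centred on their median, robust moderation with a variance trend, weighted arrays, a replicate block, 2 groups alone, and each array left out. The deviations of same-numbered arrays of different doses had a mean r of -0.008 in liver (from -0.221 to 0.301) and 0.048 in kidney (from -0.322 to 0.306). The r was over 0.1 in 10 of 60 such pairs in liver and in 23 of 55 in kidney. With means this low the numbers were not taken to pair the animals, though kidney was less clear than liver.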

Additional observations from a re-analysis of the deposited data

Results flagged for a closer look

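Within groups of 4 or 5 arrays, the highest and lowest array at 0 and at 1000 mg/kg in each organ was set against the rest by Dixon's criterion, for 21 genes (the 12 called and 9 of control and efflux). In 8 of the 84 groups tested 1 array stood apart, where chance gives about 1 in 20 for independent groups. These groups are not independent, because the liver enzymes moved together within arrays and the same arrays recur. The rate of 1 in 20 is thus no measure for the 8. In liver controls replicate 2 was low in Acat2 (8.19, others 8.89 to 9.17) and in Dhcr7 (9.83, others 10.55 to 10.80), and replicate 4 was low in Nr1h2 (6.46, others 6.81 to 6.93). In liver at 1000 mg/kg replicate 3 was high in Mvk (9.42, others 9.00 to 9.05) and in Idi1 (12.17, others 11.65 to 11.71). In kidney controls replicate 2 was high in Sqle (6.75, others 6.44 to 6.50). In kidney at 1000 mg/kg replicate 3 was high in Idi1 (9.05, others 8.86 to 8.87) and replicate 4 in Insig1 (8.66, others 8.35 to 8.40).

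The change at 1000 mg/kg was larger in liver than in kidney by the limma test of the difference for 10 genes. The difference in log2 change was 1.28 for Acat2, 1.14 for Sqle, 1.10 for Mvd, 1.07 for Msmo1 and 1.05 for Hsd17b7. It was 1.02 for Idi1, 0.93 for Dhcr7, 0.85 for Cyp51, 0.65 for Mvk and 0.49 for Ebp.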

How the results depend on the processing

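The number of members called in liver at 1000 mg/kg was 12 and stayed between 11 and 15 under 7 other settings, among them 12 with the replicate block. In a fit of the 2 groups alone it was 1, with 9 arrays in place of 25, and without both arrays that stand apart, chosen after seeing the data, it was 1. With 1 array left out at a time it ran from 1 to 13. All 216 values of the 12 called liver changes under the alternatives kept their direction, and 48 lost the call; Fdft1 lost it in none. The number at 500 mg/kg was 0, and 1 with bright genes only. Against the low doses the number was 4 in the main analysis, 7 with the mean of all probe sets, of which Abca1 was lower, 8 with bright genes only, 7 with array weights and 2 with the replicate block, and from 0 to 5 with arrays left out. For the liver trend it was 7, and 14 with bright genes only, 4 with quantile normalisation, 4 with centred arrays, and from 1 to 11 with arrays left out. For the difference between organs it was 10, and 6 with the mean of all probe sets, 6 with centred arrays, and from 2 to 11 with arrays left out. In kidney it was 0 at every dose under all alternatives, except 1 without 1000 mg/kg replicate 4 (range 0 to 1), at 1000 mg/kg and against the low doses. The replicate block changed no other count of members by over 1.5 times. The cause of these shifts was not tested, other than that fits on fewer arrays have a wider error. Groups of 3 to 5 arrays limit all of these counts, and dim probe sets, such as Abcg5 and Abcg8 in kidney, carry little signal over background.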
